A study of Mus musculus with 120 samples.

Results

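The nuclear-encoded subunits of the mitochondrial respiratory chain were followed through the livers of 10 Collaborative Cross mouse strains. Genes were taken by name: Nduf genes of the A, B, C, S and V families without the assembly factors, Sdha to Sdhd, Uqcr genes, Cyc1, Cox4 to Cox8 genes and Atp5 genes. Names ending in -ps and names occurring more than once were left out. Of 86 matching names, 81 had a mean deposited value of at least 1 over all libraries and are the genes described here, out of 24883 rows in the table and 12205 rows tested. They comprise 36 genes of complex I, 4 of complex II, 9 of complex III, 15 of complex IV and 15 of complex V. Atp5s and Atp5sl matched by name only, since their products are not subunits of ATP synthase. The 5 names below the limit were Cox4i2, Cox6a2, Cox7b2, Cox8b and Cox8c, isoforms of other tissues, with means between 0.00 and 0.29, and the lowest means inside it were those of Ndufa4l2 (1.42) and Cox6b2 (2.73).

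Collaborative Cross strains are inbred lines, each with its own mosaic of founder genomes. The strains were CC060, CC003, CC043, CC011, CC042, CC013, CC041, CC019, CC040 and CC032. For 12 weeks, females and males of each strain received either a diet high in fat and sucrose (HF/HS) or an ingredient-matched control diet with little fat and less sucrose. The HF/HS diet drew 42% of its energy from milkfat, contained 0.2% cholesterol and was over 30% sucrose. The ages of the animals were not given in the labels. RNA was sequenced from whole frozen liver, with 3 libraries for each of 40 groups of strain, sex and diet. Whether the 3 libraries were made from different mice is not stated in any label, and the p-values therefore reflect only library-to-library spread, which may be technical.

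The respiratory chain sits in the inner mitochondrial membrane. Complexes I and II pass electrons from NADH and succinate to ubiquinone, complex III hands them to cytochrome c, and complex IV transfers them to oxygen. Complexes I, III and IV pump protons, and complex V, the ATP synthase, uses the gradient to make ATP. Most subunits are encoded in the nucleus, while a small set at the heart of complexes I, III, IV and V is encoded in mitochondrial DNA. Transcription factors such as NRF1, the ETS-family factor GABPA and YY1 are known to act at promoters of nuclear respiratory genes. In liver, the chain supplies ATP for gluconeogenesis and ureagenesis and reoxidizes the electron carriers produced by fatty acid oxidation. The mitochondrially encoded subunits were not analysed here.

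The promoters of 4 genes are shown for the genes on which the diet and sex results turn, from 250 bases before to 50 bases after the RefSeq transcript start on build GRCm38.p6. Sdhd and Uqcrh fell on the HF/HS diet in both sexes, Cox7a2 had the lowest p-value between the sexes, and Ndufa10 alone rose over all groups. All 4 lie on the minus strand and are printed from 5′ to 3′ in the direction of transcription. Capitals mark matches to 3 motifs on either strand: GCGCA followed by any base and GCGC (NRF1), CCGGAAG (ETS family) and AAGATGGC (YY1).
Sdhd, chr9:50603800-50604099: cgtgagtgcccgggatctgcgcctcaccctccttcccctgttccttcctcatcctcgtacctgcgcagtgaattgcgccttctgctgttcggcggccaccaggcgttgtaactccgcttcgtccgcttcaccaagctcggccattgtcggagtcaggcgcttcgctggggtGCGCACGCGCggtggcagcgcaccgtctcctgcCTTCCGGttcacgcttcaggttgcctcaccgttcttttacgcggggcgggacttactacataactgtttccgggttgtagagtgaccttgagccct
Uqcrh, chr4:116075021-116075320: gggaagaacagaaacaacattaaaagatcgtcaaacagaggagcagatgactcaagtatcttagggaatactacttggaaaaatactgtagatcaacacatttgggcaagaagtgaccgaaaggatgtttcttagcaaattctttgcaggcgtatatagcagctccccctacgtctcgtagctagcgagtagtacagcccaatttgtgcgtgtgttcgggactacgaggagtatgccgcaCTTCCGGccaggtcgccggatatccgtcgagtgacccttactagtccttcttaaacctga
Cox7a2, chr9:79759804-79760103: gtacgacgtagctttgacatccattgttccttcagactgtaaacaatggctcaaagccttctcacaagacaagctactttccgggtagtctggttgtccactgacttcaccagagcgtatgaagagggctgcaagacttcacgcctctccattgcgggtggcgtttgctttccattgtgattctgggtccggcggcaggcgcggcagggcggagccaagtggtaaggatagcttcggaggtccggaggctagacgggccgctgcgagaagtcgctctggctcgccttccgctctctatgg
Ndufa10, chr1:92473709-92474008: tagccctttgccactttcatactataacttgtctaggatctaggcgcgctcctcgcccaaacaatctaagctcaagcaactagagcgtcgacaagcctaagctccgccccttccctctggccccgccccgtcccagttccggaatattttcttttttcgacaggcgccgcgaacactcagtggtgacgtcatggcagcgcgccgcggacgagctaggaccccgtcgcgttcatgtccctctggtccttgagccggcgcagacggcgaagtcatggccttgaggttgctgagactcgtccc

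The Sdhd window held an NRF1 match starting at position -79 from the transcript start and an ETS match at -46 on the opposite strand. The Uqcrh window held an ETS match at -10, also on the opposite strand, and neither the Cox7a2 nor the Ndufa10 window held any of the 3. RefSeq promoters were matched for 68 of the 81 genes. The NRF1 letters occurred in a promoter of 17 of these 68 genes (25%), against 1254 of 17491 protein-coding genes (7.17%). The ETS letters occurred for 16 of 68 genes (23.5%), against 12.9% of coding genes. The YY1 letters occurred for 11 of 68 genes (16.2%), against 3.57%. A further motif searched, CCAAT, is not in capitals: it occurred for 30 of 68 genes (44.1%), against 42.3% of coding genes, and the Uqcrh window holds it. A match describes the window's letters and not binding.

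Values are the deposited FPKM-like values, which are scaled per transcript length and were rescaled by the authors to a 75th percentile of about 10 in every library. Their sum per library ranged from 926928 to 4629870, and sequencing depth is unknown. The columns for CC040 female control library 3 and CC040 female HF/HS library 1, held equal values in all 24883 rows and were left out, leaving 118 libraries. The 12 CC003 libraries had sums of at least 3192040 and 41.5% to 45.1% of rows at 0. In the 12 CC060 libraries, Rmrp, a non-coding RNA, had a median of 2.02, against 14291 in the 8 other strains. Hepatocyte genes such as Ttr and Apoa1 were high in every library. Alb was listed at 0 in 102 of 118 libraries, so a 0 in this table can be a failed estimate.

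A pair of libraries stood apart for the respiratory chain genes. CC060 male control library 3 had a median over the 81 genes of 825, against 298 and 297 in its 2 group mates. Relative to those mates, 79 of the 81 genes were higher in it, with a median difference of 1.49 on the log2 scale. Cytosolic ribosomal protein genes were also higher there, by a median of 1.65, while the median over all genes tested was 0.037. Short transcripts moved with this library: genes outside the list with transcripts up to 1 kb were higher by a median of 0.48, and those over 4 kb lower by -0.51. Of the 81 genes, 62 have transcripts up to 1 kb, and their median in this library was 1.55. It was 0.94 for the 16 genes of 1 to 2 kb and 1.64 for the 3 of 2 to 4 kb. Genes outside the list in those classes had medians of 0.41 and -0.10. The part of transcript length in the values of this library was not tested. CC011 female HF/HS library 1 had a median over the 81 genes of 156, against 267 and 273 in its mates, and 79 genes were lower in it. In that library, genes outside the list showed no such gradient by transcript length, with medians between -0.084 and -0.037 in the 4 length classes. Counts and medians over the 81 genes that rest on these 2 libraries are given with and without them, as are some single genes.

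**Figure D1:**
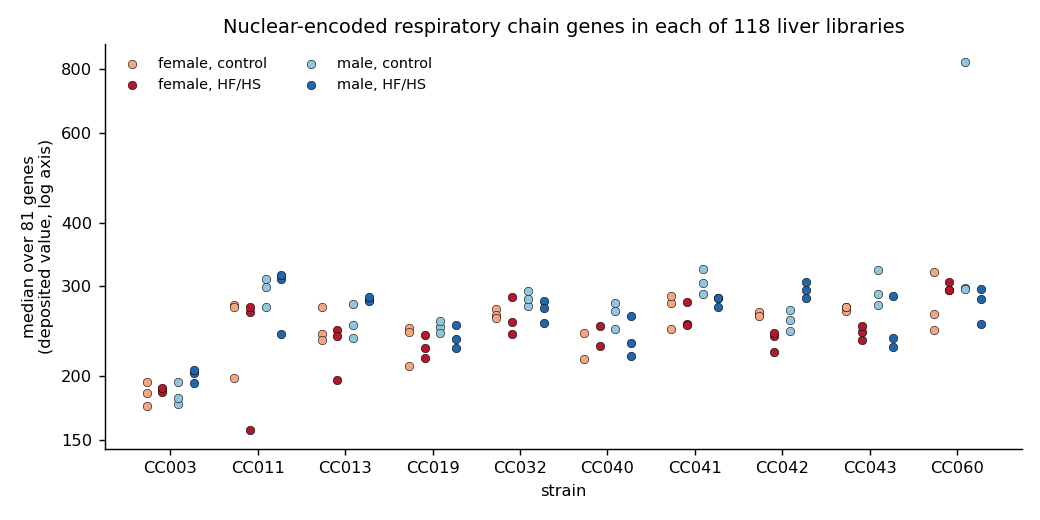
Median deposited value over the 81 genes (log axis) in each of the 118 libraries, by strain, with colours for sex and diet. CC060 male control library 3 lies at 825, CC011 female HF/HS library 1 at 156, and the CC003 libraries between 175 and 206.

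Levels differed widely between subunits of the same complex. Mean values over 118 libraries ran from 23.9 (Ndufa11) to 464 (Ndufb9) in complex I, with a median of 172 over its 36 genes. The 4 complex II genes had means from 174 (Sdhc) to 373 (Sdhb), and the 9 complex III genes from 212 (Cyc1) to 827 (Uqcr11). Complex IV reached from 1.42 (Ndufa4l2) to 943 (Ndufa4), with a median of 526. Complex V had the highest single value, 1087 for Atp5b, the catalytic beta subunit, and a median of 539 over its 15 genes. On this per-length scale, the median of complex I was thus lower than those of complexes III, IV and V. The liver isoforms Cox6a1 and Cox7a2 were abundant, whereas Cox7a1, the heart and muscle isoform of the same subunit as Cox7a2, had a mean of 4.11. The genes Atp5g1, Atp5g2 and Atp5g3 encode precursors of the same mature c subunit of the ATP synthase ring, and their means were 427, 288 and 605. Skeletal muscle markers Ckm and Myh4 had a median of 0 on both diets. The strand setting used in counting is not given in the sources used here. Many subunit genes have processed pseudogenes, so reads may have been shared with copies and single levels are uncertain.

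On the control diet, livers of males held more respiratory chain mRNA than those of females. Of the 81 genes, 55 were higher in males (67.9%) and 1 was lower at an adjusted p under 0.05, against 24.8% higher and 18.8% lower of all genes tested. The median difference over the 81 genes was 0.17 on the log2(value + 1) scale, and over all genes tested 0.016. In whole liver, a smaller number of cells of a type and less RNA per cell cannot be told apart. All complexes took part: 26 of 36 genes of complex I, 2 of 4 of complex II, 7 of 9 of complex III, 11 of 15 of complex IV and 9 of 15 of complex V were higher in males. Without the 2 outlying libraries, 53 were higher and 4 lower, with a median of 0.12. The genes then higher numbered 25 in complex I, 2 in II, 5 in III, 11 in IV and 10 in V. With median-of-ratios scaling, 46 were higher and 2 lower, and with the strain as the unit of replication 29 were higher and none lower. The shares of all genes, here and below, are from the 118 libraries at the deposited scaling. Whether all genes moved in the same way under such alternatives is not shown.

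Cox7a2, the ubiquitous isoform of a small complex IV subunit, had the lowest p-value between the sexes. Its values on the control diet had a lowest, median and highest of 138, 280 and 385 in 29 female libraries. In 30 male libraries they were 191, 340 and 1054, the highest being CC060 male control library 3. The groups overlapped, but the strain means of males were higher in 10 of 10 strains. The difference was 0.34 (SE 0.050, limma adjusted p = 1.73e-08), and 0.30 without the 2 outlying libraries.

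Ndufa4, first described with complex I and now counted as a complex IV subunit, was also higher in males in 10 of 10 strains. Its lowest, median and highest values were 546, 828 and 1258 in females and 723, 1028 and 3099 in males. The difference was 0.34 (SE 0.050, limma adjusted p = 2.09e-08). Ndufa8, an accessory subunit of complex I on the intermembrane side, differed by 0.29 (adjusted p = 1.17e-06), and Ndufa13, an accessory subunit also called GRIM-19, by 0.31 (adjusted p = 2.4e-05). Ndufa10, a complex I accessory subunit related to nucleoside kinases, differed by 0.23 (adjusted p = 1.18e-05). In complex III, Uqcr10 was higher in males by 0.32 (adjusted p = 1.47e-05) and Cyc1, which carries the haem of cytochrome c1, by 0.25 (adjusted p = 2.7e-05). Each of these genes was higher in males in at least 9 of 10 strains. When replicates were left out, the lowest differences were 0.28 for Ndufa4, 0.26 for Ndufa8, 0.25 for Ndufa13, 0.19 for Ndufa10 and 0.25 for Uqcr10.

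The 7 catalytic core genes of complex I were all higher in males in estimate, and 6 passed the test, with a median of 0.16. Among the genes that did not differ by the test was Sdhd, with 0.021 (adjusted p = 0.72), while its partner Sdhb, the iron-sulfur subunit of complex II, differed by 0.31 (adjusted p = 2.9e-05). Ndufa1, Ndufb11 and Cox7b lie on the X chromosome: their differences were 0.17 (adjusted p = 0.0083), 0.10 (adjusted p = 0.095) and 0.17 (adjusted p = 0.010). Atp5sl, which despite its name acts in complex I assembly, was the 1 gene lower in males, by -0.15 (limma adjusted p = 0.0496), and its adjusted p reached 0.28 when replicates were left out. Ndufs5 had the highest estimate, 0.35, with an SE of 0.20 and an adjusted p of 0.14, and residual spread took 64% of its variance.

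**Figure D2:**
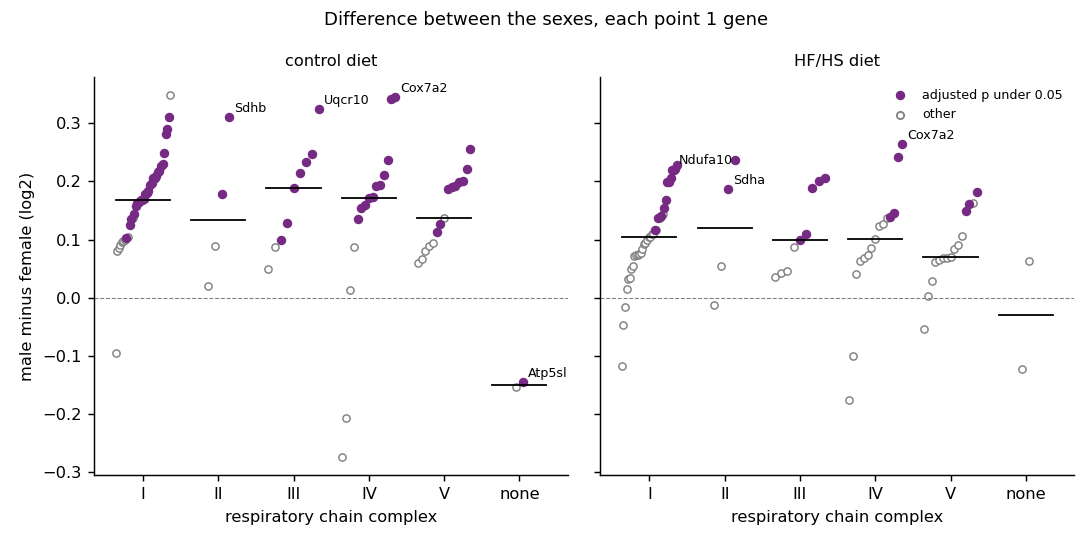
Male minus female difference (log2) of each of the 81 genes, with the control diet at left and the HF/HS diet at right, by complex. Filled points have an adjusted p under 0.05, and bars are medians per complex. On the control diet 55 points are filled above 0, and on the HF/HS diet 26.

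On the HF/HS diet, 26 of 81 genes were higher in males and none lower by limma, against 25.1% and 20.3% of all genes tested, with a median of 0.093. At an unadjusted p under 0.05, 2 genes were lower in males, Atp5sl and Ndufa7. Cox7a2 again had the lowest p-value, with values of 161, 251 and 361 in females and 204, 307 and 376 in males (lowest, median and highest). Its difference was 0.26 (adjusted p = 8.17e-06). Ndufa10 differed by 0.22 (adjusted p = 1.69e-05), Ndufa4 by 0.24 (adjusted p = 4.11e-05) and Ndufa8 by 0.22 (adjusted p = 0.000142). Sdha, the flavoprotein of complex II, was higher by 0.19 (adjusted p = 4.81e-05). Under quantile normalization the count was 56 higher and 2 lower, so the count of 26 depends on the scaling. The share of all genes under that scaling is not given here. Leaving out the CC003 and CC060 libraries gave 49 higher and none lower, and leaving out CC060 male control library 3 gave 42 higher and 1 lower, Ndufa7. Without both outlying libraries 35 were higher and 2 lower, with a median of 0.073.

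The strains were not alike in estimate. On the control diet, the median male minus female difference over the 81 genes was above 0 in 9 strains and -0.15 in CC042, where 73 of 81 genes were lower in males. On the HF/HS diet the CC042 median was 0.16, and 73 genes were higher in males. On HF/HS the median was below 0 in CC040, at -0.046 with 54 genes lower in males, and in CC060, at -0.027 with 48 lower, and it was 0.0048 in CC032. CC011 had medians of 0.30 on control and 0.37 on HF/HS. The CC011 HF/HS value was 0.11 without CC011 female HF/HS library 1. The CC011 control value includes female control library 2, low at a median over the 81 genes of 198, against 276 and 273 in its mates. The control value without that library is not given here. CC060 had a median of 0.56 on the control diet, which was 0.079 without CC060 male control library 3. Differences between strains in the sex effect were not tested.

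On the control diet, 3 of 6 macrophage markers (Clec4f, Vsig4 and Adgre1) and 3 of 4 endothelial markers were lower in males by the test, against 18.8% of all genes, while Trem2 and Gpnmb were at 0.094 and 0.15. On the HF/HS diet, 4 macrophage and 3 endothelial markers were lower and Gpnmb was higher. Summed macrophage markers had a lowest, median and highest of 74.1, 169 and 380 in females and 69.8, 127 and 234 in males. Summed endothelial markers were 99.6, 153 and 194 in females and 88.8, 127 and 199 in males. Summed hepatocyte markers other than Alb had medians of 23840 in females and 26220 in males. Ttr and Apoa1 were higher in males on the control diet, and the other 4 hepatocyte markers, Alb among them, were lower in estimate, with a median over the 6 of -0.082. The lymphocyte marker Nkg7 was lower in males by -0.36. Of 2 red blood cell markers tested, Alas2 was higher by 2.2, and the other was lower in estimate, at -0.31, without a call. Summed red blood cell markers had medians of 614 in females and 657 in males. Transcripts outside the list of up to 1 kb had a median sex difference of 0.049, and those over 4 kb of -0.022. The part of these shifts in the sex difference of the respiratory chain genes was not tested.

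Over all strains and both sexes, the HF/HS diet was accompanied by small falls in respiratory chain mRNAs. At an adjusted p under 0.05, 23 of 81 genes fell (28.4%) and 1 rose, against 15.4% falling and 17.2% rising of all genes tested. The median difference over the 81 genes was -0.054, or -0.018 without the 2 outlying libraries, against 0.00059 over all genes. Without those 2 libraries 23 fell and 3 rose, and 22 of the original 23 remained among those that fell. Under quantile normalization 15 fell and 5 rose, with a median of -0.0047, so the share of falling calls depends on the scaling. With the strain as the unit of replication 12 fell and 1 rose. The diet comparisons use the same libraries as the sex comparisons.

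Sdhd had the lowest p-value. It encodes one of the 2 small subunits that anchor complex II in the membrane and lies at chr9:50596339-50603849 (mm10). Its control values had a lowest, median and highest of 180, 274 and 372 over 59 libraries, and its HF/HS values 134, 234 and 346. The ranges overlapped, as they span all strains, and the strain means were lower on HF/HS in 9 of 10 strains. The difference was -0.18 (SE 0.029, limma adjusted p = 4.75e-07), a fold of 0.88. It was -0.16 without the 2 outlying libraries and -0.15 under quantile normalization. Its partners did not follow by the test: Sdha was at 0.010 (adjusted p = 0.82), Sdhb at 0.020 (adjusted p = 0.77) and Sdhc, the other anchor, at 0.052 (adjusted p = 0.15).

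Uqcrh, the acidic hinge subunit of complex III that sits next to cytochrome c1, was lower on HF/HS in 10 of 10 strains. Control values were 356, 562 and 2311 (lowest, median and highest), the highest again being CC060 male control library 3, and HF/HS values were 357, 499 and 714. The difference was -0.195 (SE 0.039, limma adjusted p = 3.6e-05), and -0.16 without the 2 outlying libraries. Cox7a2 differed by -0.16 (adjusted p = 0.000232) and Ndufa6 by -0.15 (adjusted p = 0.000336). Ndufa6 is an LYR-motif accessory subunit of complex I, and it was lower on HF/HS in 10 of 10 strains. Atp5f1, subunit b of the stalk that holds the ATP synthase head in place, had a median of 335 on control and 319 on HF/HS, a difference of -0.11 (adjusted p = 0.00234). Ndufc2, an accessory subunit in the membrane arm of complex I, had medians of 132 and 122, a difference of -0.13 (adjusted p = 0.00301).

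Ndufa10 was the 1 gene that rose over all groups. Control values were 98.2, 155 and 279, and HF/HS values 74.1, 171 and 225 (lowest, median and highest). The difference was 0.099 (SE 0.031, limma adjusted p = 0.00864) and 0.13 without the 2 outlying libraries, where the lowest HF/HS value is no longer 74.1 but 116. It was higher on HF/HS in 9 of 10 strains. Without the CC003 and CC060 libraries the call was lost, at 0.060 (adjusted p = 0.119). Cox7a1 had the lowest estimate, -0.33 (adjusted p = 0.030), from medians of 4.03 and 3.20. Its adjusted p was 0.062 without the 2 outlying libraries, and at such low values single libraries weigh heavily.

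By complex, 8 of 15 complex V genes fell, and all 15 were lower in estimate, with a median of -0.091. Under quantile normalization 2 of the 15 fell and 6 were higher in estimate, and with the strain as the unit 2 fell. The membrane part and side stalk contributed 7 of the 8, among them the 3 genes for the c ring: Atp5g1 at -0.14, Atp5g2 at -0.081 and Atp5g3 at -0.092. Of the 5 genes of the F1 head and central stalk, Atp5c1, the gamma subunit, fell by 0.091 on the log2 scale. In complex I, 8 of 36 fell and 1 rose, and with the strain as the unit 4 fell. Among the 7 catalytic core genes 1 fell, Ndufv2, which holds an iron-sulfur cluster next to the NADH site, by 0.10 on the log2 scale (adjusted p = 0.0127). In complex III, 3 of 9 fell: Uqcrh, Uqcr10 and Uqcr11, all small subunits without a redox centre. Under quantile normalization 1 of the 9 fell and 5 were higher in estimate, with a median of 0.012. In complex IV, 3 of 15 fell, namely Cox7a1, Cox7a2 and Cox7b. Under quantile normalization 3 fell as well, but 10 of the 15 were higher in estimate.

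**Figure D3:**
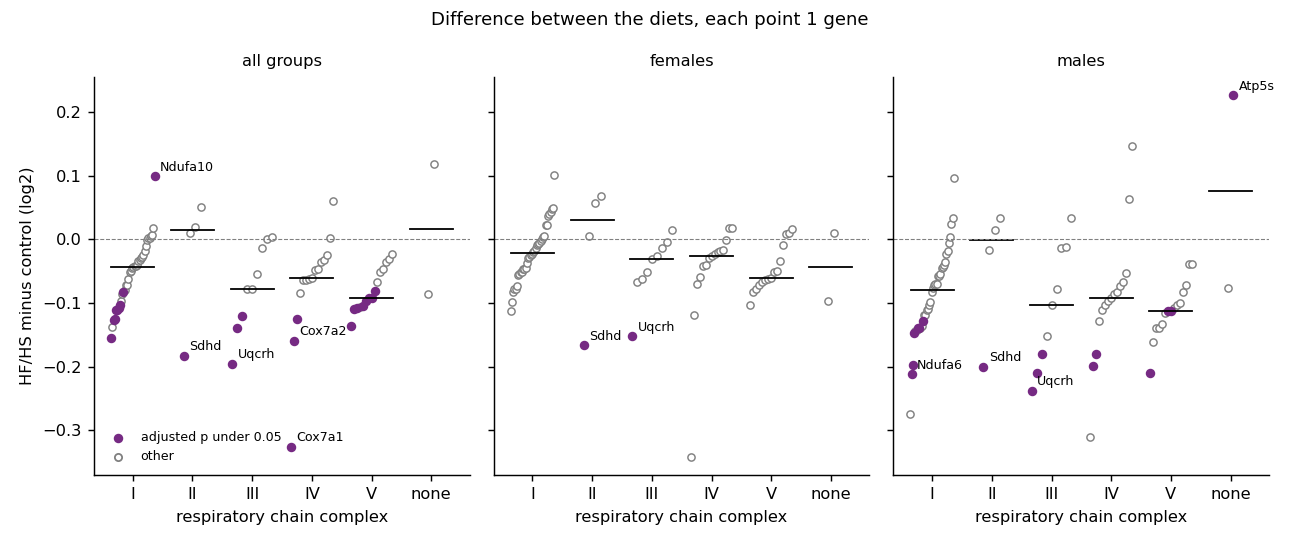
HF/HS minus control difference (log2) of each of the 81 genes over all groups, in females and in males, by complex. Filled points have an adjusted p under 0.05, and bars are medians per complex. Filled points number 24 over all groups, 2 in females and 16 in males.

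In females, 2 of 81 genes fell and none rose by limma, against 8.08% falling and 9.59% rising of all genes tested, with a median of -0.027. The 2 were Sdhd, with a difference of -0.17 (SE 0.042, adjusted p = 0.00299), and Uqcrh, with -0.15 (adjusted p = 0.0438). Sdhd values in females were 201, 270 and 333 on control and 134, 240 and 301 on HF/HS (lowest, median and highest). At an unadjusted p under 0.05, 5 genes were lower and 1 higher. The adjusted p of Uqcrh reached 0.16 when replicates were left out. Without CC060 male control library 3, 5 genes fell. Leaving out the CC003 and CC060 libraries gave 8 that fell and none that rose. Quantile normalization gave 5 that fell and 3 that rose, with a median of -0.0053. Without both outlying libraries, 1 of which is a female HF/HS library, 3 fell and 2 rose, and the median was -0.0018 with 38 genes higher and 43 lower.

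In males, 15 of 81 genes fell and 1 rose, against 9.93% and 11% of all genes tested, with a median of -0.097. This count rests in part on CC060 male control library 3: without it 9 fell and 2 rose, with a median of -0.038, and without both outlying libraries 14 fell and 2 rose. Quantile normalization gave 13 that fell and 6 that rose, with a median of -0.011, 33 genes being higher and 48 lower. With the strain as the unit of replication, Sdhd alone remained called (adjusted p = 0.045). Sdhd fell by 0.20 on the log2 scale (limma adjusted p = 0.000112), from values of 180, 274 and 372 to 186, 224 and 346. Uqcrh differed by -0.24 (adjusted p = 0.000484), Ndufa6 by -0.21 (adjusted p = 0.000754) and Cox7a2 by -0.20 (adjusted p = 0.00152). Atp5g1 differed by -0.21 (adjusted p = 0.00247) and Ndufb8, a complex I subunit of the membrane arm, by -0.20 (adjusted p = 0.00666). Tested over strain means, the adjusted p was 0.065 for Uqcrh, 0.077 for Ndufa6, 0.17 for Cox7a2, 0.18 for Atp5g1 and 0.071 for Ndufb8. Atp5s, not a subunit, rose by 0.23 (adjusted p = 0.0124), from a median of 3.8 to 4.22. Tested over strain means, its adjusted p was 0.069.

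The diet effect did not differ between the sexes by the test for any of the 81 genes, against 0.877% of all genes tested. The lowest p-values for this difference were those of Atp5s, at 0.22 (limma adjusted p = 0.384), and Ndufs8, a core subunit of complex I, at -0.15 (adjusted p = 0.426). At an unadjusted p under 0.05, 1 of the 81 genes, Atp5s, had a higher diet difference in males and 1, Ndufs8, a lower one. The count of 0 therefore shows only that no difference passed the adjustment.

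Marker genes moved with the diet as well. Of 6 macrophage markers 4 rose, and of 6 hepatocyte markers 5 fell and Alb, mostly listed at 0, rose. Summed macrophage markers had a lowest, median and highest of 69.8, 146 and 380 on control and 30.6, 167 and 507 on HF/HS. Summed hepatocyte markers without Alb had medians of 25280 and 22150. Of 5 stellate cell markers Col1a1 and Col3a1 rose, by 0.40 and 0.58, as did 2 of 4 endothelial markers and 1 of 2 red blood cell markers. Bile duct, fat and skeletal muscle markers stayed low, with highest sums of 4.07, 5.93 and 6.06. Cytosolic ribosomal protein genes, also short and abundant, fell in 72 of 77 cases with a median of -0.20. Genes outside the list with transcripts up to 1 kb had a median diet difference of -0.010. The part of these shifts in the falls of the respiratory chain genes was not tested.

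Within single strains, the median HF/HS minus control difference over the 81 genes ran from -0.23 in CC060 to 0.10 in CC003. It was below 0 in 7 of 10 strains, of which CC032 was at 0.017 under quantile normalization. The CC060 value rests on 1 library and was 0.031 without CC060 male control library 3, and the CC011 value of -0.075 was 0.052 without CC011 female HF/HS library 1. The value of 0.052 still includes CC011 female control library 2, low at 198 against 276 and 273 in its mates. CC043, at -0.16, was the lowest of the other strains. There Sdhd fell by 0.38 on the log2 scale (SE 0.091, limma adjusted p = 0.00564), the only one of the 81 genes called, against 2.47% of all genes tested falling in that strain. Its CC043 values were 257, 276 and 334 on control and 191, 218 and 234 on HF/HS (lowest, median and highest of 6), so the groups did not overlap. In CC060, 12 of 81 genes fell, against 7.4% of all genes, with the lowest p for Uqcrh, at -0.44 (adjusted p = 0.00877). Without CC060 male control library 3, none of the 81 genes fell in CC060 and 1 rose by limma, where 5.99% of all genes had risen with it, and in CC043 9 fell.

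Females and males differed in sign in some strains and agreed in others. In CC042, 75 of 81 genes were lower on HF/HS in females, with a median of -0.14, and 78 were higher in males, with a median of 0.18. In CC013, 74 were lower in females, with a median of -0.13, and 73 higher in males, with a median of 0.12. In CC040 the signs were turned: 67 were higher in females, with a median of 0.062, and 79 lower in males, with a median of -0.17. CC043 was lower in both sexes, with medians of -0.13 and -0.20, and CC003 higher in both, with medians of 0.11 and 0.10. Also lower in both, females first, were CC011 (-0.11 and -0.051), CC019 (-0.0083 and -0.088), CC032 (-0.042 and -0.15) and CC041 (-0.044 and -0.098). The CC011 female median was 0.15 without HF/HS library 1 and with the low control library 2 kept. CC060 was at 0.080 in females and -0.55 in males, or -0.016 without CC060 male control library 3. These medians rest on 2 or 3 libraries per group, and their differences were not tested.

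By the F test of strain by diet, none of the 81 genes differed between strains in its diet effect, against 5.54% of all genes tested. The lowest p-values belonged to Ndufab1, the mitochondrial acyl carrier protein (limma adjusted p = 0.216), Ndufv2 (adjusted p = 0.292), Atp5g1 (adjusted p = 0.373), Ndufc1 (adjusted p = 0.401) and Ndufs4 (adjusted p = 0.404). At an unadjusted p under 0.05, 1 of the 81 genes, Ndufab1, passed. Without the 2 outlying libraries 6 genes were called, and under quantile normalization 2, Ndufa3 and Ndufab1.

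**Figure D4:**
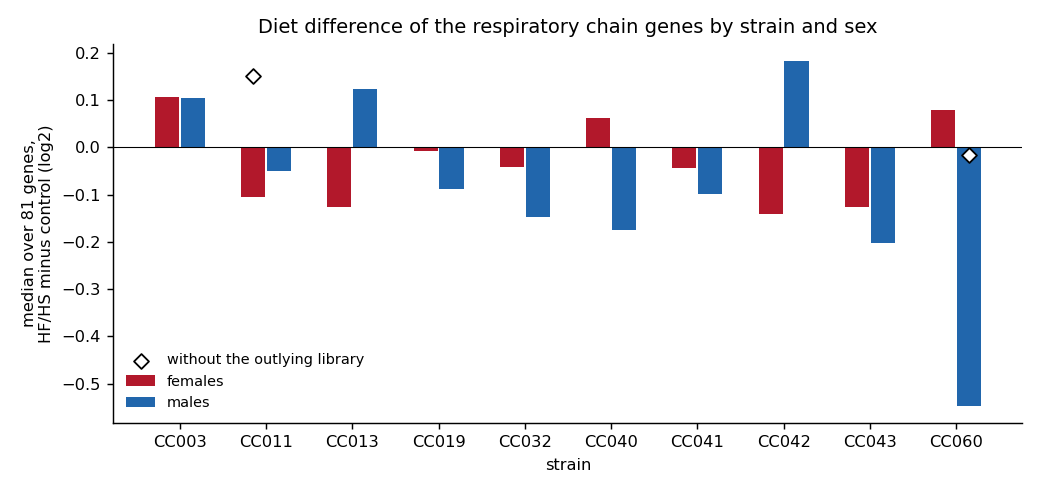
Median HF/HS minus control difference (log2) over the 81 genes in females and males of each strain, as bars, with diamonds for CC011 females and CC060 males without their outlying library. CC060 males go from -0.55 to -0.016 and CC011 females from -0.11 to 0.15 when that library is left out. The CC011 female value of 0.15 still includes control library 2, low at 198 against 276 and 273 in its mates. The remaining CC011 female HF/HS libraries were at 267 and 273.

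Levels also differed between strains. Over the 118 libraries, strain took a median of 52.7% of a gene's variance and was the largest share for 70 of the 81 genes. The other medians were 4.04% for sex, 0.988% for diet, 10.8% for interactions between strain, sex and diet, and 28% for the residual. These shares are sums of squares that were not divided by the number of terms behind each. Strain and the pooled interactions have more terms than sex or diet, so a larger share alone does not show a stronger effect. The strain share of 52.7% includes whatever sets the values of the CC003 and CC060 libraries apart. Over the 94 libraries of the 8 other strains, the medians were 35% for strain, 8.38% for sex, 1.91% for diet, 15.9% for interactions and 34.4% for the residual. Strain was the largest share there for 42 genes. On the control diet, the F test across 8 strains called 50 of 81 genes, against 86.5% of all genes tested. CC003 and CC060 were kept out of this test because their values stand apart, in sums and zeros for CC003 and in Rmrp for CC060. No label gives a reason, and a difference between libraries cannot be told apart here from strain. All 118 libraries set the spread. Without CC060 male control library 3 the count was 73. Without both outlying libraries 76 were called, as under quantile normalization, and with all 10 strains 78. Across the 8 strains, the highest strain mean was at least 1.12 times the lowest for each gene other than Cox6b2, with a median ratio of 1.33, and 20 genes had a ratio over 1.5.

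Cox6b2, the testis isoform of a complex IV subunit, had the highest share of variance between strains, 85.5%. Over 118 libraries its median was 0.337 and it was at 0 in 35, so it met the limit on the mean through the strains where it was high. The limit thus favours a gene of this kind, and its share and F test are given as a description. Its control values had a lowest, median and highest of 6.03, 15.7 and 21.1 in CC011 and 3.82, 5.0 and 8.19 in CC042. In CC013, CC019, CC032, CC040 and CC041 no library exceeded 1.2, and in CC043 it was listed at 0 in all 6. CC011 and CC042 thus overlapped each other and lay above the other 6 strains of the test (F test, limma adjusted p = 1.36e-21). Cox7a2l, also called SCAF1, joins complexes III and IV into supercomplexes. Its means ± SD were 104 ± 4.91 (n = 6) in CC019 and 207 ± 4.16 (n = 6) in CC042, with the other 6 strains between 156 and 186 (adjusted p = 2.98e-15). The 6 values of CC019 ran from 98.3 to 110 and lay below every value of the other 7 strains.

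Ndufs4, an accessory subunit of the NADH-oxidizing arm of complex I, had its lowest mean in CC019, 44.3 ± 3.31 (SD, n = 6), and its highest in CC041, 80.6 ± 9.20 (adjusted p = 1.77e-12). Ndufa12, a neighbouring accessory subunit, was in contrast high in CC019, at 341 ± 17.9, and in CC042, at 386 ± 23.2, with its lowest mean in CC040, 191 ± 37.2 (adjusted p = 4.19e-11). Ndufc2 ran from 99.4 ± 6.18 in CC019 to 172 ± 21.9 in CC041 (adjusted p = 4.88e-10). Ndufb8 ran from 283 ± 22.7 in CC040 to 513 ± 63.7 in CC032 (adjusted p = 2.98e-09), and Ndufa6 from 344 ± 42.3 in CC040 to 541 ± 45.3 in CC043 (adjusted p = 5.91e-08). Sdhd ran from 219 ± 11.5 in CC019 to 320 ± 49.9 in CC011 (adjusted p = 2.05e-06). The strain order was therefore not shared: CC019 was lowest for Cox7a2l, Ndufs4, Ndufc2 and Sdhd while for Ndufa12 only CC042 was higher.

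**Figure D5:**
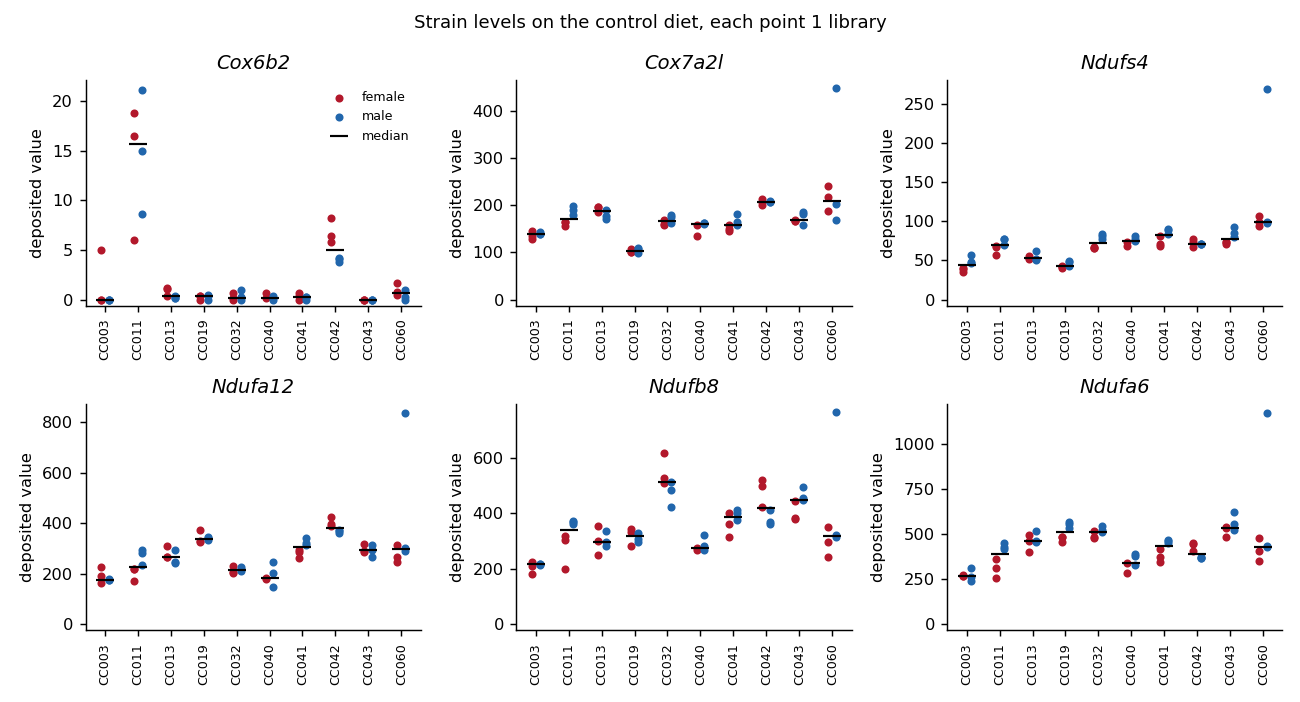
Deposited values of 6 genes in each control-diet library, by strain, with females and males in 2 colours and a bar at the strain median. Cox6b2 lies above 3.8 in every CC011 and CC042 library, Cox7a2l is lowest in CC019, and the single high point in CC060 is male library 3.

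After the group means were removed, the 81 genes varied together from library to library. The median correlation over the 3240 pairs of genes was 0.80 over 118 libraries and 0.73 without the 2 outlying ones. It was alike within a complex (0.81) and between complexes (0.80). The same measure over every 12th gene tested, 1018 genes, was -0.00077. With cytosolic ribosomal protein genes the median correlation of the 81 genes was 0.68. These values share library, RNA quality and scaling, and they are given as a description.

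Electron carriers, assembly factors and regulators around the chain were counted in the same way. Of 14 genes for electron carriers, 5 rose on HF/HS and none fell by limma, among them Etfdh, which feeds electrons from fatty acid oxidation into ubiquinone, with a difference of 0.24 (adjusted p = 2.32e-06), and the coenzyme Q synthesis gene Coq2, with 0.14 (adjusted p = 3.79e-05). Of all genes tested, 17.2% rose and 15.4% fell. Of 44 assembly factors 8 rose and 6 fell, shares near those of all genes, with the lowest p-value for Cox19, at 0.23 (adjusted p = 9.61e-06). Of 14 TCA cycle genes 3 rose and 1 fell: Idh2 was at 0.37 (adjusted p = 1.49e-10), Suclg2 at 0.22 and Fh1 at -0.17. Of 15 regulators 2 fell, Ppargc1a, a coactivator of mitochondrial genes, at -0.37 (adjusted p = 9.06e-06) and Nrf1 at -0.090 (adjusted p = 0.0142). Of 8 tested genes for uncoupling and ATP exchange 5 fell, with Vdac1, an outer membrane channel, at -0.12 and Slc25a3, the phosphate carrier, at -0.11.

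Mitochondrial ribosomal protein genes were also higher in males. On the control diet 48 of 77 were higher in males and 1 lower, against 24.8% and 18.8% of all genes, with a median of 0.13, while of 77 cytosolic ribosomal protein genes 7 were higher and none lower. CC060 male control library 3 was high for both sets, by medians of 1.22 and 1.65 against its mates. Counts without it are not given here. Assembly factors were higher in males in 20 of 44 cases and lower in 1, Acad9, at -0.30. Coq7, which hydroxylates a coenzyme Q precursor, was higher in males by 0.61 (adjusted p = 1.53e-16). Of 15 regulators 3 were higher in males and 1 lower, Ppargc1a, at -0.49 (limma adjusted p = 2.52e-05).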

How the data were processed

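Whole-liver RNA was sequenced in 120 libraries, and 118 were used. Per the submitters' processing notes, the tools were Cufflinks 2.2.1, Bowtie2 2.2.5.0 and TopHat2 2.1.1, on build mm10. The deposited FPKM values are, per the values themselves, rescaled to a 75th percentile near 10 in each library. The labels name both a ribosomal-depletion and an mRNA kit without saying which library used which. Every column was mapped to a sample.

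Rows with a mean of at least 1 over all columns were tested (12205), and rows with repeated names were not removed. The values entered limma 3.58.1 in R 4.3.3 as log2(value + 1). There was 1 model, with a mean for each of 40 groups over all 118 libraries. Benjamini-Hochberg adjustment ran over all rows tested, with a threshold of 0.05. Contrasts averaged strains equally. The strain unit alternative tested group means per strain. The tests were checked on simulated data, but the setting and outcome of that check are not given here. No conclusion on the counts of called genes is therefore drawn from it. In the real libraries, the respiratory chain genes varied together after the group means were removed, with a median correlation of 0.80 over 118 libraries. The members and lists were chosen with earlier results of these data known. Values in full were given, per contrast and direction, for up to 6 called genes with the lowest p-values (the 2 lowest where none was called), for the 5 and 8 lowest in the F tests, for the called gene with the lowest p-value in each strain, and for up to 4 genes of each other list. A gene that this rule names for the HF/HS sex comparison is not reported here. Any other gene given with values was chosen after its values were seen. Alternatives were other pseudocounts, filters and scalings, a replicate block, the strain unit, fewer strains, all 120 columns and replicates left out. Leaving out the outlying libraries, and variance shares over 8 strains, were added after seeing the data. Transcript lengths came from GENCODE and promoters from RefSeq.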

Additional observations from a re-analysis of the deposited data

Results flagged for a closer look

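In 12 of 99 groups of libraries, the highest or lowest library lay farther from the others than Dixon's 95% critical value. Chance gives about 1 in 20 groups. Of these, 7 involved CC060 control libraries, with CC060 male control library 3 the highest each time. Its median over the 81 genes was 825, and its values were 448 for Cox7a2l, 269 for Ndufs4, 838 for Ndufa12, 260 for Ndufc2, 766 for Ndufb8 and 1170 for Ndufa6, rounded. Among the medians over the 81 genes, 1 CC011 control library was low at 198 and 1 CC019 control library at 209. Cox6b2 was 4.98 in 1 CC003 control library and at 0 in the other 5. Cox7a2l was low at 135 in 1 CC040 control library, and Sdhd was high at 334 in 1 CC043 control library.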

How the results depend on the processing

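Each count here is of the 81 genes called by limma at an adjusted p under 0.05, both directions together, and the causes of the shifts were not tested. The shares of all genes under these settings are not given, so the counts do not show whether all genes moved alike. With the strain as the unit the diet called 13 over all groups and 1 in males, and the sexes on the control diet 29. Quantile normalization called 8 for the diet in females, 58 between the sexes on HF/HS, 2 by the F test of strain by diet and 76 by the F test of strains, and moved the diet medians of CC032 to 0.017 and of CC042 to 0.061. Without the CC003 and CC060 libraries the counts were 8 for the diet in females and 49 between the sexes on HF/HS. Without a filter on low values the diet called 1 in females, and with 10 strains the F test called 78. Without both outlying libraries the counts were 5 for the diet in females, 6 for strain by diet and 76 for strains.

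When a replicate or a single outlying library was left out, the counts ran from 8 to 32 for the diet over all groups, from 1 to 5 in females and from 6 to 30 in males. The lowest and highest male counts came without the third HF/HS and the first control libraries of males. Between the sexes they ran from 32 to 62 on control (61 over the replicates alone) and from 18 to 43 on HF/HS, by the F test of strain by diet from 0 to 1, and by the F test of strains from 39 to 73 (68 over the replicates alone). With the replicate block (consensus correlation 0.024) the diet called 24 over all groups and 17 in males, against 16 without it. Libraries of the same number correlated from -0.22 to 0.37 over 58 pairs, with a median of -0.012 and 9 over 0.1. The labels do not say whether the numbers pair libraries, and these correlations cannot exclude it. The block moved no other count by over 1.5 times. Sequencing depth is unknown, so the precision of low genes such as Cox7a1, Cox6b2 and Atp5s cannot be given.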
